A study of Rattus norvegicus with 24 samples.

Results

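The arrays described here follow the cortex of the rat kidney across a single interval of recovery from ischemia: 24 h of reperfusion, set against 6 h. Of the 24 arrays of the series, 6 belong to it, chosen by their titles as the 3 cortex arrays of 24 h and the 3 of 6 h. The rats were Wistar and 3 months old. In both groups the blood supply of both kidneys had been stopped for 20 min and then restored, for 24 h in one and for 6 h in the other. The other 18 arrays hold cortex of sham rats and of rats at 120 h, and medulla of all 4 conditions, with 3 arrays a group. The medulla arrays of 24 and 6 h serve as the comparison, while the sham and 120 h cortex arrays place the levels in time. The labels do not say whether replicates came from separate rats, so each p-value below is read against the spread among these arrays alone, part of which may be technical.

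Ischemia stops the tubule cells of the cortex, above all those of the proximal tubule, from making enough energy, and some of them die or detach. Survivors lose features of the mature cell, spread over the bare basement membrane and divide to refill the epithelium. A cell that enters the cycle first makes the proteins that copy DNA, under control of E2F factors, and later those of mitosis, whose promoters often carry CCAAT boxes and an element called CHR, on which factors such as NF-Y, FoxM1 and the MuvB complex act. Acute phase proteins such as fibrinogen are made mainly by the liver, in answer to interleukin-6 and STAT3, but injured epithelia can make some of them too.

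Across this interval the clearest change in cortex was a rise of cell-division genes. Of 14390 probes tested, 216 (1.5%) passed an adjusted p of 0.05 in limma, with Benjamini-Hochberg adjustment, and 1650 had an unadjusted p under 0.05. Higher at 24 h were 188 probes (1.31%) and lower 28 (0.195%). Taken as 1 probe a gene, 151 of 9799 genes (1.54%) rose and 24 (0.245%) fell, while the median over all genes was -0.02 on the log2 scale. Of the 151 genes that rose, 50 belong to lists of mitosis or of DNA replication, and of the 24 that fell, none. The lists, and the choice of these genes, were made with earlier results of these data known. Their counts are therefore set beside those over all genes and are not tested.

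The 6 arrays had median intensities of 73.5 to 98.1, and between 49.8% and 55.0% of the probes on each stood above background. Slc34a1, Cubn, Slc5a2 and Slc22a6, transporters and a receptor of the proximal tubule, were above background on all 6 arrays, at log2 levels of 8.59 to 13.7, as was the podocyte gene Nphs1. Detection alone does not tell the regions apart, since Slc34a1 was above background on all 3 medulla arrays at 6 h and at 24 h too. Its level differed, with means of 12.45 at 6 h and 12.32 at 24 h in cortex and of 8.43 and 8.23 in medulla. The third 6 h array stood apart from the others of its group, which were the brightest of the series. The first and second had median intensities of 97.2 and 98.1, with 49.8% and 50.3% of probes above background. The third was at 73.5 and 55%, beside medians of 70.9 to 79.9 in sham and 120 h cortex. Over all probes tested the third correlated at 0.965 and 0.966 with the others of its group, which correlated at 0.978 with each other. With the 120 h cortex arrays it correlated at 0.968 to 0.979, and the first 6 h array at 0.963 to 0.977. Which of the 6 h arrays is typical was not tested. Without the third 6 h array the model called 164 probes higher and 110 lower. Of the 188 higher calls 144 were shared between both fits, and of the 28 lower calls 16. The third 24 h array differed from its group in genes of the thick ascending limb. Umod, which encodes the urinary protein uromodulin, was at 13.2, 14.2 and 10.8 at 24 h and at 13.6, 13.6 and 14.2 at 6 h, so that 1 array at 24 h lay below all others. The difference was not confined to that segment. Among the other genes to be named whatever their values, this array was the lowest of its group for Slc34a1 (11.60), Aqp2 (8.71) and, by little, Spp1. It was the highest for Fgb, Fgg, Lcn2, Timp1, Clu and Vim. Named genes that lost their call without the third array of 6 h or of 24 h are given with the value without it.

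The cyclin-dependent kinase that drives entry into mitosis, Cdk1, had the largest rise of all genes tested. Its log2 level was 10.55, 10.31 and 10.04 at 24 h and 6.04, 6.96 and 5.52 at 6 h, so the groups lay more than 3 log2 units apart. The difference of 4.13 ± 0.37 (SE, n = 3 each), a 17.5-fold change, had an adjusted p of 1.6e-06 in limma. This SE, like all those below, rests on the spread per probe over all 24 arrays and not on the 6 arrays alone. Its mean was 5.02 in sham cortex and 8.29 at 120 h, so at 120 h it was between its 6 h and 24 h means.

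The promoters of 3 of these mitotic genes are shown for the motifs that link them, from RefSeq on build GRCr8, each as the 150 bases before the start of the gene, read along the gene's strand. Cdk1 lies at chr20:19265143-19265292 on the plus strand. The stretch of Ccnb2, which encodes cyclin B2, a partner of Cdk1, is chr8:79981659-79981808 on the minus strand. The stretch of Prc1, a protein that bundles microtubules of the central spindle, is chr1:143659331-143659480 on the plus strand. Capitals mark the CHR element TTTGAA and the CCAAT box, each on either strand, so ATTGG is a CCAAT box read backwards.
Cdk1: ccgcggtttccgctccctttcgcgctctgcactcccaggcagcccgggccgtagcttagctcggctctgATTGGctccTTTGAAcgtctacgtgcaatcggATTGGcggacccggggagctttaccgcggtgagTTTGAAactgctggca
Ccnb2: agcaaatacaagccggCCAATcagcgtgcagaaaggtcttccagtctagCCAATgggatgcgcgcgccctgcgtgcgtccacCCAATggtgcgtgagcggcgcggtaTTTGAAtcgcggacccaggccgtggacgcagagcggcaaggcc
Prc1: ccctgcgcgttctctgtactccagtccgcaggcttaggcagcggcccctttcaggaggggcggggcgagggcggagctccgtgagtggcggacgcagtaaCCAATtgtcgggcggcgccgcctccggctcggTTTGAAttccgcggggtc

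In the window from 250 bases before to 50 after the start, TTTGAA stood in 26 of 41 promoters matched among the 50 mitosis genes tested (63.4%), against 18.1% of all 27457 promoters in the table. A CCAAT box stood in 31 of the 41 (75.6%), against 37.7% of all. Both stood in 21 of the 41 (51.2%), against 7.25% of all. Among the promoters of the mitosis genes that rose, 22 of 29 held TTTGAA and 17 of 29 held both. These are matches of letters, given as a description, and they show no binding of a factor.

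Mitosis genes moved together, with few exceptions. Of 70 genes listed, 50 were tested, and 37 of them rose while none fell. For 44 of the 50 all 3 arrays at 24 h lay above all 3 at 6 h, which was so for 7.92% of all genes tested, and all below for 6.75%. The median of the list was 2.12 on the log2 scale. Without the third 6 h array 34 rose with a median of 1.88, and 31 of the 37 kept their call whichever of the 6 arrays was left out. Over the 50 genes, the mean log2 level of an array ran from 7.89 to 8.27 at 24 h and from 5.96 to 6.35 at 6 h. In bulk tissue, more cells that divide and more of these transcripts per dividing cell cannot be told apart.

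Cyclins and kinases led the list. Ccna2, cyclin A2, which acts in DNA synthesis and early mitosis, was at 8.60, 8.58 and 8.57 at 24 h and at 4.62, 5.26 and 4.81 at 6 h. It rose by 3.69 ± 0.31 (SE; adjusted p = 6.63e-07 in limma), and its 24 h arrays were nearly equal. Ccnb2 stood at 11.19, 10.22 and 9.35 at 24 h and at 6.71, 7.79 and 6.03 at 6 h, a rise of 3.41 ± 0.45 that missed the threshold when only the groups compared entered the fit (adjusted p = 0.0761). Pbk, a mitotic kinase, was at 8.65, 8.76 and 8.40 at 24 h and at 4.70, 4.89 and 4.91 at 6 h. Its rise of 3.77 ± 0.24 had the lowest adjusted p among the named genes, 3.22e-08. At 6 h Pbk and Ccna2 were each above background on 1 of 3 arrays, so the sizes of both rises are uncertain. Aurkb, the kinase that corrects faulty attachments of chromosomes, was at 9.05, 9.10 and 8.81 at 24 h and at 5.41, 6.18 and 5.01 at 6 h, and rose by 3.46. Plk1, a kinase of mitotic entry and spindle assembly, rose by 2.94. Ttk, the kinase of the spindle checkpoint, was not above background on any 6 h array and was at least 7.23-fold higher at 24 h.

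Spindle and kinetochore genes were among the largest rises too. Prc1 was at 10.72, 10.26 and 9.90 at 24 h and at 6.05, 7.96 and 6.75 at 6 h, a rise of 3.37 ± 0.43. Nuf2, part of the complex that holds microtubules at the kinetochore, was at 8.35, 8.28 and 7.99 at 24 h and at 4.65, 5.14 and 4.87 at 6 h, a rise of 3.32. Knstrn, a protein of the spindle and kinetochore, rose by 3.29, and Kif20a, a kinesin of cell cleavage, by 3.23. None of these genes had overlapping groups. The checkpoint genes Bub1b and Mad2l1 were not above background on any 6 h array and were at least 3.06-fold and 2.37-fold higher at 24 h. With every gene of this kind set at its bound, the median of the list remained 2.12.

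**Figure D1:**
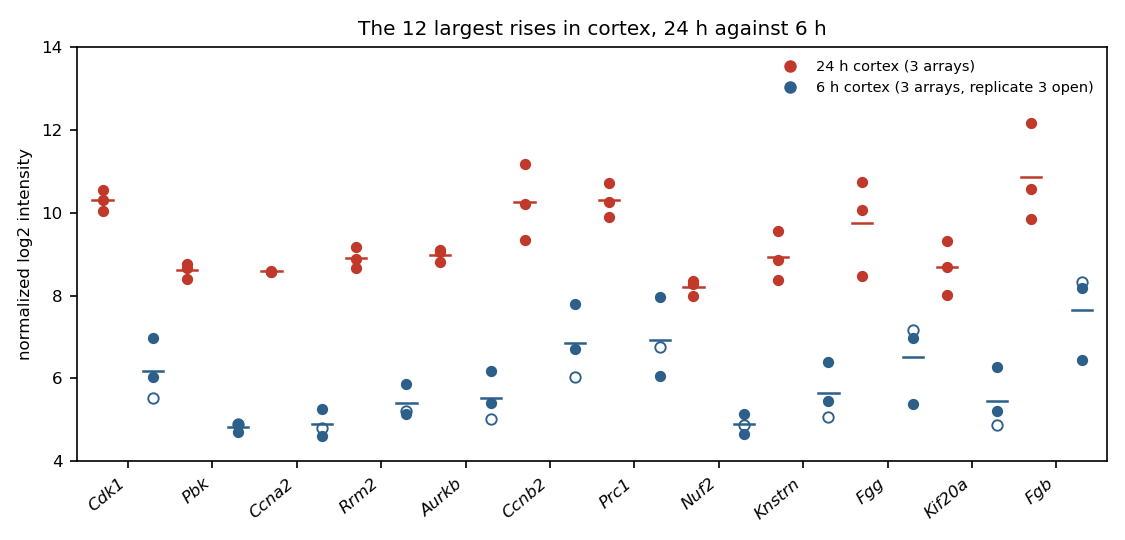
Normalized log2 intensity of the 12 genes with the largest rises, with 3 points at 24 h left of 3 points at 6 h for each gene and a line at each mean. Every 24 h point lies above every 6 h point of its gene, and for Cdk1 the means are 4.13 apart.

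The members that did not pass the test included both near misses and genes with little difference. Tubb5, a tubulin, differed by 1.51 (adjusted p = 0.0513), Cenpf, a kinetochore protein, by at least 1.47-fold (adjusted p = 0.0535), and Ncapd2, a condensin subunit, by 1.22 (adjusted p = 0.063), all from limma and all with 24 h arrays above the 6 h arrays. Ccnb1, cyclin B1, whose product pairs with Cdk1 as that of Ccnb2 does, differed by 0.13 on its probe and stayed near background, at 4.94, 5.39 and 4.90 at 24 h and at 5.02, 5.15 and 4.68 at 6 h. Kif11, the motor that pushes spindle poles apart, differed by -0.30 on the probe used and by -0.70 on another, with overlapping groups. Melk, a kinase of dividing cells, differed by -0.57, also with overlap.

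DNA replication genes moved the same way. Of 57 genes listed 44 were tested, of which 13 rose and none fell. For 32 of the 44 all 24 h arrays lay above all 6 h arrays, against 7.92% of all genes tested. The median was 0.86. Without the third 24 h array 6 genes rose, and 6 of the 13 kept their call in every fit that left out an array. Without the third 6 h array the count was 11. The mean log2 level of the 44 genes ran from 7.68 to 8.10 at 24 h and from 6.86 to 7.07 at 6 h, so the 2 groups of arrays did not overlap.

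Rrm2, a subunit of the enzyme that makes deoxynucleotides, led this list at 8.89, 8.67 and 9.17 at 24 h and at 5.13, 5.86 and 5.21 at 6 h. It rose by 3.51 ± 0.36 (SE; adjusted p = 6.48e-06 in limma). E2f1, a factor that switches on genes of the S phase, was at 7.30, 7.62 and 7.32 at 24 h and at 5.02, 5.45 and 4.99 at 6 h, a rise of 2.26 ± 0.21. Pole, the polymerase of the leading strand, was at 7.36, 7.44 and 7.17 at 24 h and at 5.0, 5.43 and 5.55 at 6 h, a rise of 1.99. In each of these the 24 h arrays lay close together and far above those of 6 h. Pcna, the clamp that holds polymerases on DNA, was at a mean of 12.32 at 24 h and 11.79 at 6 h and did not pass the test (difference 0.53, adjusted p = 0.25).

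Mcm6, a subunit of the helicase that opens DNA, was at 9.32, 9.91 and 9.93 at 24 h and at 7.09, 8.33 and 7.92 at 6 h. Its rise of 1.94 ± 0.41 had an adjusted p of 0.015, but leaving out the first 6 h array, or the second or the third of 24 h, gave adjusted p-values of 0.0927, 0.0686 and 0.0742, and the fit of only the groups compared one of 0.09. Its promoter is shown for its E2F sites, which overlap on opposite strands. The 150 bases before the start lie at chr13:42404353-42404502 on the minus strand of GRCr8 (RefSeq), and capitals mark TTTGGCGC together with TTTCGCGC read on the other strand.
Mcm6: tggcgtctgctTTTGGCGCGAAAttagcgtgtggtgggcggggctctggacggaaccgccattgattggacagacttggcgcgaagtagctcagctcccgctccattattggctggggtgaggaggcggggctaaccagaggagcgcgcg

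Any of the 4 E2F motifs TTTCCCGC, TTTCGCGC, TTTGCCGC and TTTGGCGC stood on either strand in 17 of 36 matched promoters of the replication genes tested (47.2%), against 2.25% of all promoters. Of the genes that rose, 7 of 9 matched promoters held one.

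The list of G1 cyclins, Cdk inhibitors and p53 targets moved little. Of its 29 genes tested, Cdkn2c rose and no gene fell, with a median of -0.23. This depends on how the lists were drawn, since the E cyclins were counted with the replication genes. Ccne2 rose by 1.61 (adjusted p = 0.0139 in limma), a call kept in 2 of the 6 fits that left out an array. Ccne1 differed by 0.91 without a call (adjusted p = 0.0648). Cdkn3, a Cdk inhibitor by name and in none of the lists, rose by 2.87 and kept its call in all 6 fits. Cdkn2c, an inhibitor of the kinases Cdk4 and Cdk6, was at 5.86, 6.37 and 6.13 at 24 h and at 5.40, 5.18 and 5.18 at 6 h. Its rise of 0.87 had an adjusted p of 0.0194. It missed the threshold without the second or the third array of either group, with adjusted p-values of 0.0554 to 0.118, and with only the groups compared (0.159). Ccnd1, cyclin D1, was at a mean of 11.84 at 24 h and 12.62 at 6 h, with overlapping groups and no call (-0.78, adjusted p = 0.389).

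By 120 h most of these genes were lower again. For the 37 mitosis genes that rose, the medians of the group means were 4.95 in sham cortex, 5.44 at 6 h, 8.41 at 24 h and 6.54 at 120 h, and for 34 of them the 120 h mean lay between those of 6 and 24 h. For the 13 replication genes the medians were 5.65, 5.66, 7.84 and 5.85 in the same order. These genes were chosen for their high level at 24 h against 6 h, so 120 h is set against a 24 h level picked for being high. The sham and 120 h levels did not enter that difference, but those arrays did enter the spread per probe behind the calls.

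Acute phase genes made up the next largest count of calls among the lists. Of 41 genes listed 31 were tested, 7 rose, none fell, and the median was 0.39. They were Fgb and Fgg, which encode the beta and gamma chains of fibrinogen, the heme-binding protein Hpx, the protease inhibitor Serpina3n, the complement genes C4b and Cfi, and Lbp, which binds bacterial lipopolysaccharide. No probe for Fga, the third fibrinogen chain, is named in the annotation. Without the third 6 h array 6 rose, and 5 without the first 6 h array or the third of 24 h.

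Fgb stood at 9.86, 10.57 and 12.16 at 24 h and at 6.44, 8.19 and 8.34 at 6 h. The spread within each group was wide, with SDs of 1.18 at 24 h and 1.05 at 6 h, but all 24 h arrays lay above those of 6 h. The rise of 3.20 ± 0.60 (SE, n = 3 each), 9.22-fold, had an adjusted p of 0.0051 in limma and was 2.56 without the third 24 h array (adjusted p = 0.0476). The SE, which draws on all 24 arrays, is smaller than the 6 arrays alone would give. Fgg was at 8.46, 10.06 and 10.75 at 24 h and at 5.38, 6.98 and 7.17 at 6 h, with SDs of 1.17 and 0.98. Its rise of 3.25 ± 0.65 had an adjusted p of 0.00955 in limma. It missed the threshold without the first 6 h array (2.68, adjusted p = 0.0729) or the third 24 h array (2.75, adjusted p = 0.076). With only the groups compared in the fit, neither was called (adjusted p = 0.19 for Fgb and 0.176 for Fgg), and with only the 12 cortex arrays Fgg was not (0.053). Sham means were 4.86 for Fgb and 4.77 for Fgg, so both genes were above sham at 6 h already, and their 120 h means were 8.32 and 7.16.

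Hpx, the plasma protein that carries free heme, had the lowest adjusted p of the list. It was at 7.19, 7.71 and 8.63 at 24 h and at 4.52, 4.93 and 4.60 at 6 h, where no array was above background, and so at least 7.42-fold higher at 24 h (adjusted p = 3.11e-07 in limma). Sham cortex was at a mean of 4.83 and 120 h cortex at 5.08. The rise was therefore seen at 24 h and was nearly gone at 120 h.

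Serpina3n was at 7.95, 8.32 and 9.39 at 24 h and at 5.72, 6.63 and 6.43 at 6 h (2.29, adjusted p = 0.005). Cfi, the protease that inactivates C3b and C4b, was at 8.38, 8.08 and 9.33 at 24 h and at 6.07, 6.52 and 6.40 at 6 h (2.27). C4b, complement component 4, was at 11.57, 11.96 and 11.50 at 24 h and at 9.13, 9.78 and 9.65 at 6 h (2.16). These 3 genes kept their calls whichever of the 6 arrays was left out, but Serpina3n missed the threshold with only the groups compared (adjusted p = 0.0992) and with only the 12 cortex arrays (0.052). Cfi and C4b stayed high at 120 h, with means of 8.95 and 11.73, while Serpina3n was at 7.34. Lbp was at 7.09, 7.40 and 7.81 at 24 h and at 5.42, 6.43 and 5.42 at 6 h (1.68, adjusted p = 0.0361), and its call was lost in 5 of the 6 fits that left out an array, with an adjusted p of up to 0.172.

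Defining genes of the liver, the main source of these proteins, were at or near background. Ttr and Ahsg were above background on none of the 6 arrays, and Alb on none of 3 at 24 h and 1 of 3 at 6 h. Of the 5 genes of the liver list that were tested, Hpx alone was called, and the mean level of the list was 6.03 to 6.76 at 24 h and 6.14 to 6.34 at 6 h. Haptoglobin, Hp, and the acute phase genes Crp and Orm1 were above background on no array at 24 h. The third 24 h array, low in thick ascending limb genes, Slc34a1 and Aqp2, was the highest of its group for Fgb, Fgg, Hpx, Serpina3n, Cfi and Lbp. The part of that array's makeup in their levels was not tested beyond leaving it out.

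The promoter of Fgb is shown for a letter match to a STAT site, TTCNNNGAA, in capitals, within bases 250 to 101 before the start, at chr2:170700976-170701125 on the minus strand of GRCr8 (RefSeq).
Fgb: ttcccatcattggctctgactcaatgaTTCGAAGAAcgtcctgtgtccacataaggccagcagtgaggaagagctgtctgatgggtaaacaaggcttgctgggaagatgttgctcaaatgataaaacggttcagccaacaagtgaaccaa

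TTCNNNGAA stood in 3 of 19 matched promoters of the acute phase genes tested (15.8%), against 8.68% of all promoters. Of the genes that rose, Fgb and Serpina3n held it, 2 of 6 matched.

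**Figure D2:**
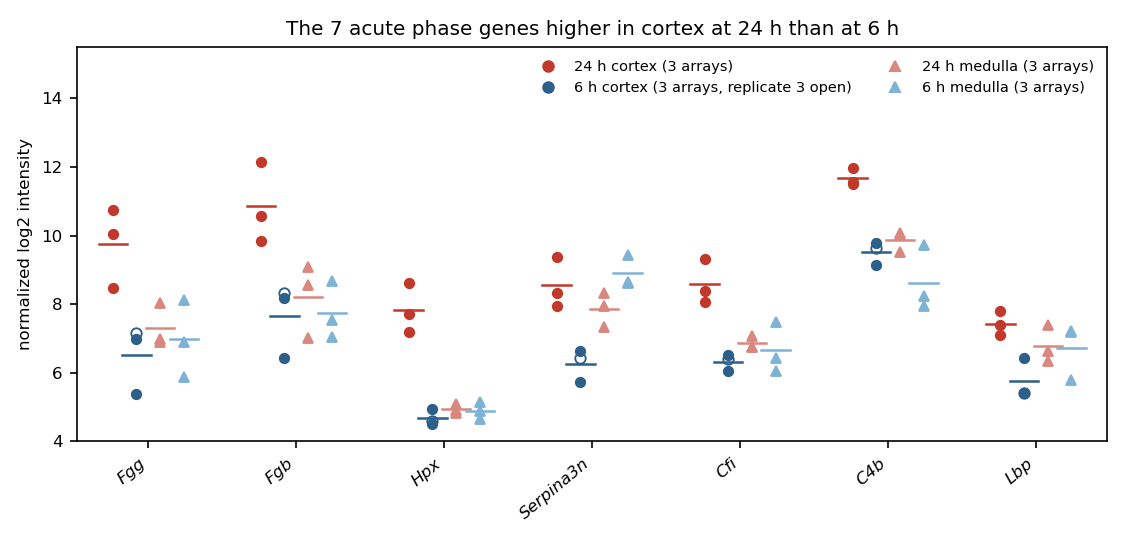
Normalized log2 intensity of the 7 acute phase genes that rose in cortex, with 24 h cortex, 6 h cortex, 24 h medulla and 6 h medulla from left to right for each gene and a line at each mean of 3 arrays. In cortex the 24 h points lie above the 6 h points for all 7, while in medulla the points of both times overlap for Fgg, Fgb, Hpx, Cfi, C4b and Lbp.

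Among 41 tested genes of secreted injury markers and of tubular dedifferentiation, 2 rose and 1 fell, and the median was 0.10. Clu, the secreted chaperone clusterin, was at 14.57, 14.24 and 14.61 at 24 h and at 11.25, 12.38 and 12.23 at 6 h. It rose by 2.52 ± 0.37 (SE; adjusted p = 0.000382 in limma). Spp1, osteopontin, was at 14.61, 14.64 and 14.57 at 24 h and at 13.36, 13.40 and 14.01 at 6 h, a rise of 1.02 (adjusted p = 0.0157) that missed the threshold without any array but the third of 6 h (adjusted p of 0.051 to 0.0858) and in both fits of fewer groups (0.147 and 0.0862). Both genes at 24 h lay close to the top of the normalized scale, 14.775, where differences are compressed.

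Lcn2, the injury marker lipocalin-2 or NGAL, was at 11.48, 11.37 and 12.44 at 24 h and at 10.16, 10.65 and 9.99 at 6 h. Its groups did not overlap, but the difference of 1.49 ± 0.54 did not pass the test (adjusted p = 0.244). Most of its difference from sham was present at 6 h, since the sham mean was 7.43. Timp1, an inhibitor of matrix proteases, differed by 1.4 and Vim, the filament protein vimentin, by 0.39, both with overlapping groups and without a call. No probe is named for Havcr1, which encodes the injury marker Kim-1. Krt20, a keratin of injured tubules, was at 5.11, 5.69 and 6.61 at 24 h and at 6.45, 8.08 and 7.12 at 6 h. Its fall of 1.42 on the log2 scale had an adjusted p of 0.0498, the groups overlapped, and it lost the call without the second or the third 6 h array or the first or second of 24 h (adjusted p of 0.0731 to 0.297).

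Falls were few and small. The median of the 28 lower probes was -0.88, against 1.56 for the 188 higher ones, and 7 of the 28 kept their call in all 6 fits that left out 1 array, against 109 of the 188. For the lower probes the medians of the group means were 6.18 in sham cortex, 7.28 at 6 h, 5.85 at 24 h and 6.31 at 120 h. The highest of the 4 medians was that of 6 h. These probes were chosen for a lower level at 24 h than at 6 h. The sham and 120 h levels did not enter that difference, but those arrays did enter the spread per probe behind the calls. The 94 lower probes that were added when the third 6 h array was left out had a median log2 level of 5.75, against 6.82 for all probes, and 44 of them have no gene symbol. The 6 h side of that fit held only the first and second arrays, with median intensities of 97.2 and 98.1.

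Cldn22, a claudin of tight junctions, had the largest fall among the called genes whose groups did not overlap. It was at 5.17, 4.69 and 5.02 at 24 h and at 7.09, 6.29 and 7.03 at 6 h, a fall of 1.85 ± 0.18 on the log2 scale (adjusted p = 3.86e-06 in limma). At 24 h the gene was near background, above it on 2 of the 3 arrays, so the size of the fall is uncertain. The Cldn22 means in sham and 120 h cortex, 4.78 and 5.0, lay beside that of 24 h, so the gene stood out at 6 h. The related claudin Cldn24 was at 4.76, 4.65 and 4.67 at 24 h, where no array was above background, and at 6.86, 5.18 and 5.32 at 6 h, at least 1.83-fold lower at 24 h. Its call (adjusted p = 0.0444) was lost without any one of the 24 h arrays (adjusted p of 0.112 to 0.135), and the first 6 h array gives most of its size, since the fitted difference was -0.55 without that array.

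Zfand2a, a zinc finger protein induced by heat and arsenite stress, was at 8.91, 8.98 and 9.08 at 24 h and at 9.80, 11.88 and 10.64 at 6 h, a fall of 1.78 on the log2 scale (adjusted p = 0.00488). Acp3, an acid phosphatase, was at 5.27, 5.93 and 5.46 at 24 h and at 6.86, 7.62 and 7.52 at 6 h, also a fall of 1.78. Ambp, the precursor of alpha-1-microglobulin and bikunin, was at 7.59, 7.03 and 6.23 at 24 h and at 8.06, 8.46 and 8.63 at 6 h, a fall of 1.43. Ppm1j, a protein phosphatase, fell by 1.03. These 4 genes and Cldn22 kept their calls whichever of the 6 arrays was left out. With only the groups compared, however, Zfand2a, Ambp and Ppm1j were not called (adjusted p = 0.314, 0.246 and 0.321), nor with only the 12 cortex arrays (0.0635, 0.0687 and 0.0635), while Acp3 and Cldn22 were.

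The other named falls did not. Maff, a small Maf factor of the early stress response, was at 5.49, 4.71 and 5.57 at 24 h and at 6.92, 6.89 and 6.86 at 6 h. Its fall of 1.63 on the log2 scale had an adjusted p of 0.0498, which became 0.0792 to 0.221 as each array was left out. Gng7, a G protein subunit, fell by 1.59, Wfdc1 by 1.01, Tlcd4 by 0.96, Sytl3 by 0.91 and the lipocalin receptor gene Slc22a17 by 0.77. Each of these lost its call without at least 2 of the 6 arrays, with highest adjusted p-values of 0.203 for Gng7, 0.266 for Wfdc1, 0.169 for Tlcd4, 0.0882 for Sytl3 and 0.186 for Slc22a17. Without the third 24 h array, Gng7 (adjusted p = 0.172), Wfdc1 (0.266), Tlcd4 (0.169), Sytl3 (0.0836), Slc22a17 (0.186) and Maff (0.0792) were not called. Without the third 6 h array, Gng7 (adjusted p = 0.0961), Slc22a17 (0.102) and Maff (0.081) were not called.

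**Figure D3:**
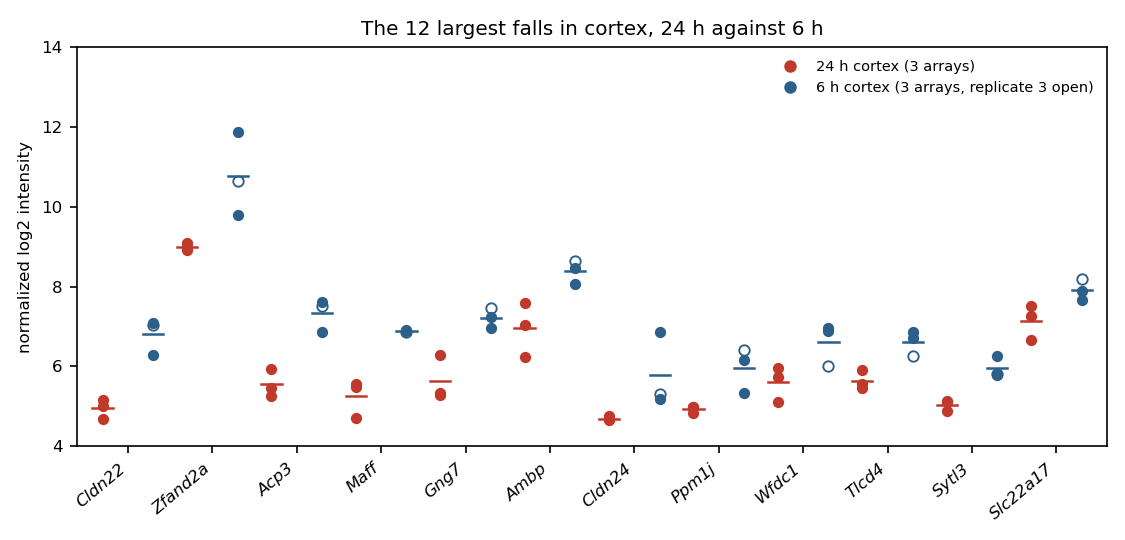
Normalized log2 intensity of the 12 genes with the largest falls among those whose groups did not overlap, with 3 points at 24 h left of 3 points at 6 h for each gene and a line at each mean. The distances are shorter than among the rises, and for Cldn22 the means are 1.85 apart.

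Immediate early genes, which cells switch on within minutes of a stimulus, gave 1 call. Of 35 tested, Maff alone fell and none rose, the median was -0.28, and 4 of the 35 differences were above 0, against 4528 of the 9799 over all genes. Fos was at 6.66, 5.85 and 6.62 at 24 h and at 7.89, 7.43 and 8.01 at 6 h, without overlap and without a call (-1.4, adjusted p = 0.455). For Fos the 6 h arrays lay above the sham mean of 6.11. Egr1 differed by -0.80 with overlapping groups. The element TGACGTCA, bound by CREB, stood in 3 of 28 matched promoters of this list (10.7%), against 1.91% of all promoters.

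Stress lists had no call, while over all genes 1.54% rose and 0.245% fell. The 23 heat shock and chaperone genes tested had a median of -0.22, with Dnaja4 at 9.14, 9.19 and 9.07 at 24 h and at 9.25, 10.69 and 11.09 at 6 h (-1.21, adjusted p = 0.114). The 31 genes of endoplasmic reticulum stress had a median of -0.01 and the 35 Nrf2-linked antioxidant genes one of -0.12. For 6 of these 35, among them Txnrd1 and Cat, all 24 h arrays lay below all 6 h arrays, against 6.75% of all genes tested. The 44 chemokines, cytokines and their signals had a median of -0.07 and no call. The 46 genes of ribosome biogenesis (median -0.11), the 39 of oxidative phosphorylation (0.04), the 40 of fatty acid oxidation (0.00), the 27 of glycolysis (0.01) and the 19 of cholesterol synthesis and uptake (0.10) had none either.

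Genes of the mature tubule gave no call in either direction. Over all genes 1.54% rose and 0.245% fell, so lists of this size can hold none. The 52 tested transporters and brush border genes of the proximal tubule had a median of -0.27 and no call. Of their differences 15 were above 0, against 4528 of the 9799 over all genes. For 6 of the 52 all 24 h arrays lay below all 6 h arrays, which was so for 6.75% of all genes tested. Slc34a1, the sodium-phosphate cotransporter, was at 13.01, 12.36 and 11.60 at 24 h and at 12.41, 12.38 and 12.55 at 6 h, with overlap (-0.13, or 0.23 without the third 24 h array), and its sham mean was 13.6. Slc5a8, a monocarboxylate transporter, was at 9.53, 8.39 and 8.09 at 24 h and at 10.93, 10.19 and 10.73 at 6 h, the most negative difference of the list (-1.95), without a call (adjusted p = 0.112). The 52 genes of proximal tubule metabolism had a median of -0.21 and no call. Of their differences 11 were above 0. For 7 of them all 24 h arrays lay below all 6 h arrays and for 1 all above, against 6.75% and 7.92% of all genes tested.

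In the thick ascending limb list (10 tested, median -0.25) Umod differed by -1.04 and Egf, which encodes epidermal growth factor, by -1.77, with both at their lowest on the third 24 h array and neither called. Without that array the differences were -0.08 for Umod and -0.61 for Egf, and the median of the list was 0.03. Without the second 24 h array Umod differed by -1.78 (adjusted p = 0.0783 in limma), Egf by -2.48, and the median was -0.66. Of 24 distal tubule and collecting duct genes (median -0.23) none was called, and the water channel Aqp2 differed by -0.34 with overlap. The 12 glomerular genes had a median of -0.02.

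Extracellular matrix genes gave 1 call among 42 tested. The median was 0.18, and for 8 genes all 24 h arrays lay above all 6 h arrays, against 7.92% of all genes tested. The call was Lum, a collagen-binding proteoglycan, at 5.98, 5.28 and 5.93 at 24 h and at 5.34, 4.70 and 4.75 at 6 h, with overlap. Its difference of 0.80 had an adjusted p of 0.0445, which was 0.112 to 0.241 without the second or the third 6 h array or the first or the third of 24 h. Fn1, fibronectin, was at 10.30, 9.72 and 10.66 at 24 h and at 8.50, 8.86 and 9.41 at 6 h (1.30, adjusted p = 0.198), and Col3a1, a collagen chain, differed by 1.37 (adjusted p = 0.282).

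Among immune lists, the 31 macrophage genes tested had a median of 0.16, the 7 neutrophil genes -0.19, the 17 T, B and NK cell genes 0.06 and the 25 interferon-induced genes 0.13, with no call. For 6 of the 25 interferon-induced genes all 24 h arrays lay above all 6 h arrays and for 1 all below, against 7.92% and 6.75% of all genes tested. S100a8, a neutrophil protein, was at 7.55, 6.62 and 7.75 at 24 h and at 8.87, 8.21 and 8.02 at 6 h, below without a call (-1.06, adjusted p = 0.451), while in medulla it fell by 2.49 (adjusted p = 0.0167). The other defining neutrophil marker, S100a9, was not above background on any cortex array of 24 or 6 h. No probe is named for the defining macrophage markers Cd68 and Csf1r. Psmb9, a subunit of the immunoproteasome, was at 9.96, 9.63 and 9.64 at 24 h and at 8.63, 8.20 and 7.48 at 6 h, above without a call (1.64, adjusted p = 0.0659). The 16 endothelial genes had a median of 0.05, and the defining endothelial marker with a probe, Cdh5, was not above background.

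**Figure D4:**
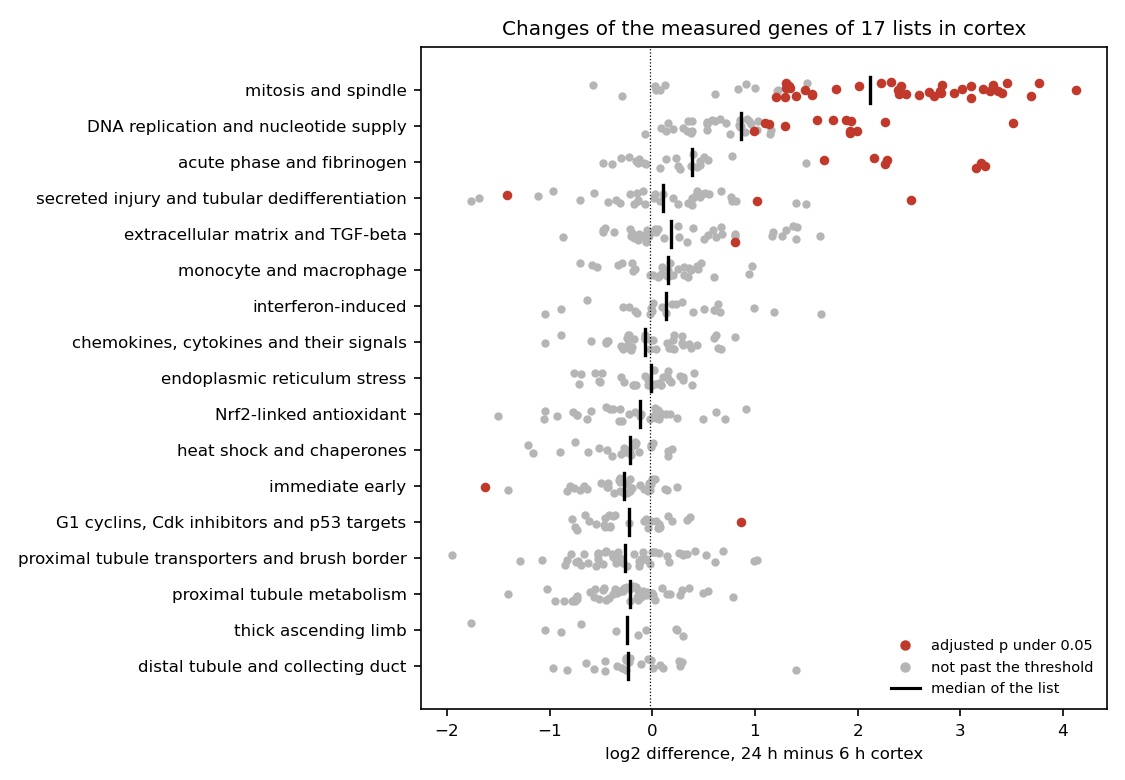
Log2 difference between 24 h and 6 h cortex of every tested gene of 17 lists, with called genes in red, a bar at each list's median and a dotted line at the median over all genes. The mitosis list, with a median of 2.12, and the replication list, with 0.86, lie to the right of the others.

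Was the step the same in medulla? There 201 probes (1.4%) passed the same test, and by gene 120 (1.22%) rose and 31 (0.316%) fell. The comparisons share no arrays, but both took the spread per probe from all 24 arrays, so their calls are not independent. With only the medulla groups compared in the fit, 0 probes were called in medulla. The labels do not say whether cortex and medulla came from the same rats. Of the 188 probes higher in cortex, 113 were also called higher in medulla, 60.1% of the cortex calls and 71.5% of the 158 medulla calls. Of the 188, 182 had a positive difference in medulla, with a median of 1.23 there against 1.56 in cortex. Among probes called lower, 4 were shared, 14.3% of the 28 in cortex and 9.3% of the 43 in medulla. No probe was called in opposite directions.

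Cell-division genes rose in both regions. The mitosis list had a median of 2.12 in cortex and 1.59 in medulla, with 37 and 33 genes higher, and the replication list 0.86 in cortex and 0.73 in medulla, with 13 and 11 genes higher. Cdk1 rose by 4.13 in cortex and by 3.13 in medulla, with 9.77, 9.33 and 10.87 at 24 h and 6.74, 6.60 and 7.25 at 6 h in medulla. The difference between these steps, 1.00 ± 0.53, did not pass the test. Acp3 also fell in both, by 1.78 in cortex and by 1.70 in medulla.

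Acute phase genes gave no higher call in medulla. Their list had a median of 0.39 in cortex and 0.06 in medulla, and of the 7 genes that rose in cortex none was called in medulla, where their median was 0.19. Fgb in medulla was at 7.01, 8.56 and 9.09 at 24 h and at 8.68, 7.03 and 7.53 at 6 h, with overlap (0.47), and Fgg differed by 0.33. Serpina3n differed by -1.02 in medulla. The differences between the steps, 2.73 ± 0.85 for Fgb, 2.91 ± 0.92 for Fgg and 3.31 ± 0.61 for Serpina3n, did not pass the test of the difference over all probes. That test called 2 probes (0.0139%), while 331 had an unadjusted p under 0.05.

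Hpx was one of the 2. In medulla it stood at 5.08, 4.82 and 4.91 at 24 h and at 4.64, 4.87 and 5.15 at 6 h, near background at both times, while in cortex it was at least 7.42-fold higher at 24 h. The fitted difference of the steps, 3.11 ± 0.35 (SE; adjusted p = 0.000353 in limma), rests on levels at background and is no measured size, and its test passed in each of the 6 fits that left out 1 cortex array. Cldn22 was the other, with 4.70, 4.78 and 4.91 at 24 h and 4.91, 4.79 and 4.94 at 6 h in medulla. These levels were near background, as were those of 24 h cortex, so the size of the difference is uncertain for Cldn22 too. The difference of the Cldn22 steps was -1.76 ± 0.26 (adjusted p = 0.01), and it passed in 4 of the 6 fits, with an adjusted p of 0.0544 without the second 24 h cortex array and of 0.0508 without the third of 6 h.

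**Figure D5:**
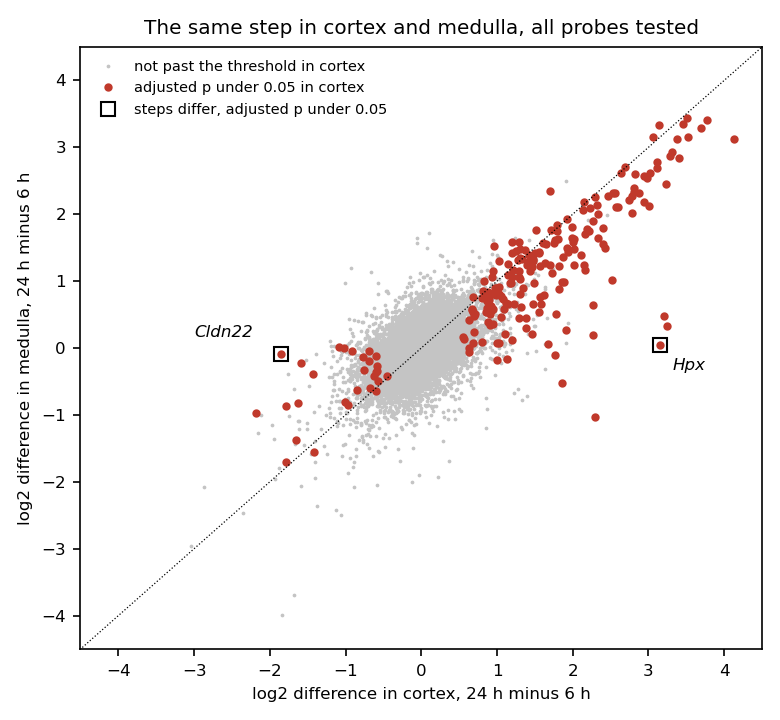
Log2 difference between 24 h and 6 h in cortex (horizontal axis) and in medulla (vertical axis) of the 14390 probes tested, with probes called in cortex in red and the 2 whose steps differed in squares. Most red points lie near the dotted line of equal steps, while Hpx, at background in cortex at 6 h, is at a fitted 3.16 in cortex and 0.05 in medulla.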

How the data were processed

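The members were chosen by array title, and the gene lists, tests and motifs were chosen with earlier results of these data known. The intensity values deposited for each probe of the Illumina bead arrays were left unnormalized by the authors, per the file headers. The detection value beside each intensity, deposited by the authors as a fraction between 0 and 1, rose with intensity, and 1 minus this value served as the detection p. The authors' log2 values in the series table served as an alternative; how they were normalized is not stated in the labels. Per the labels' protocols, Trizol and a column kit were used for the RNA, which was amplified into biotinylated cRNA.

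Normalization was by neqc in limma 3.58.1 (R 4.3.3), which estimates the background with the help of the detection p, then applies an offset of 16, quantile normalization and log2. Of 22523 probes, the 14390 above background (detection p under 0.05) on 3 or more of the 24 arrays were tested. All 24 arrays entered a single linear model of 8 group means with eBayes with 1 estimate of the spread shared by the groups (degrees of freedom: 16 residual, 3.34 prior), and p-values were adjusted by Benjamini-Hochberg over all probes, with a threshold of 0.05. A gene was its probe with the highest mean. Gene symbols came from the platform annotation, with 1 symbol for 13793 probes and none for 8730. Where no array of a group was above background, a bound on the fold was given: the bright group's mean against, per array, the higher of the dim probe and the lowest signal above background. The scripts were tested on simulated data.

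Named genes were the 12 largest rises and falls without overlap between groups and above background in the higher group, up to 4 called members per list, the 2 probes whose steps differed, and 12 genes always named: the fibrinogen chains, the injury genes Lcn2, Havcr1, Clu, Spp1, Vim and Timp1, and Aqp2, Slc34a1 and Umod of the tubule. Other list members were named as examples after their values were seen. Promoters are RefSeq's on GRCr8, 300 bases each, with the first listed start taken for the 3251 genes with several. Figures were drawn with Python 3.11.15 and matplotlib 3.10.9. Signal over background and 3 arrays a group limit the precision. Whether replicate numbers pair the cortex arrays was not decided. Deviations of same-numbered arrays correlated at 0.103, 0.0716 and 0.0861, but arrays of unlike number were not set beside them. Alternatives covered background correction, scaling, probe filter, arrays in the fit, spread, threshold, a replicate block and each array left out.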

Additional observations from a re-analysis of the deposited data

Results flagged for a closer look

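The step from 6 to 24 h differed between cortex and medulla, by the test of the difference itself, for Hpx, with a fitted difference of 3.11 on the log2 scale. Since no 6 h cortex array was above background for Hpx, that value is no measured size, and its cortex change is bounded as at least 7.42-fold. It differed also for Cldn22, whose cortex step minus medulla step was -1.76. Cldn22 was above background on 2 of 3 arrays in 24 h cortex, 2 of 3 in 6 h medulla and 1 of 3 in 24 h medulla. The size of its difference is therefore uncertain too.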

How the results depend on the processing

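The 216 calls in cortex (188 higher, 28 lower) were 107 (103 and 4) when only the groups compared entered the fit and 124 (117 and 7) at an adjusted p under 0.01. The count of lower calls moved most: 9 with median scaling, 18 with a strict filter on dim probes, 11 with only the 12 cortex arrays, 69 with array weights, 18 with trend and robust settings and 12 at a change of 2-fold or more. Leaving out 1 array at a time gave 145 to 274 calls, 133 to 178 higher and 12 to 110 lower. The lower count was 12 without the first and 14 without the third 24 h array, 60 without the second and 110 without the third 6 h array, while the cause was not tested. With a replicate block 222 probes were called, 205 of them shared. In medulla the 201 calls were 0 with only the groups compared, 675 with array weights and 95 at an adjusted p under 0.01, and 105 to 240 with 1 array left out, 105 without the third 24 h medulla array. The 2 probes whose steps differed were 1 with quantile normalization alone, with the authors' series values, with median scaling and at an adjusted p under 0.01, 0 with only the groups compared, and 1 to 4 with 1 array left out: 4 without the first 6 h array, 1 without the third 6 h array or the second 24 h array. Among genes named by rule, 18 lost their call with only the groups compared and 14 with only the 12 cortex arrays, while the replicate block ended those of Lum (adjusted p = 0.0658) and Maff (0.0585). Of the 40 genes chosen by rule, none reversed direction under any alternative while called.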

Other observations

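Of the 151 genes that rose in cortex, 90 belong to none of the lists, and the genes below were picked from them after their values were seen. Several are known in cell division too: Pclaf, a partner of Pcna, was not above background at 6 h and at least 6.95-fold higher at 24 h, and Kntc1, a kinetochore protein, rose by 2.95. Ube2t, a conjugating enzyme of the Fanconi pathway of DNA repair, rose by 2.98. Bard1, the partner of Brca1, was not above background at 6 h and was at least 3.38-fold higher at 24 h. In medulla Kntc1 rose by 2.57. Reg3b and Reg3g, secreted lectins known from gut and pancreas, also rose in cortex. Reg3b rose by 1.86 in cortex and differed by -0.52 in medulla, but kept its call in 2 of the 6 fits that left out an array, with an adjusted p of up to 0.131 in limma, without the third 24 h array. Reg3g was above background on no 6 h cortex array and was at least 2.87-fold higher at 24 h in cortex, while no medulla array of 24 or 6 h was above background. The difference of the steps did not pass the test for either. Serpina10, an inhibitor of coagulation factor Xa made mainly by liver, rose by 1.91 in cortex and differed by 0.27 in medulla, also without a call of the difference.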
